A study of Mus musculus with 6 samples.

Results

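Cxcl12, Cxcr4 and Ackr3 encode a chemokine and its receptors. They are 3 of the 14549 genes with values in RNA sequencing of mouse epicardium and subepicardium at E16.5, a late stage of gestation, and all 3 symbols were found once. The genes were chosen on measured values of the comparison described here, in which Cxcr4 was among the largest rises, so their own levels are given as a description with no test. In the pools with Meis1 and Meis2 deleted, Cxcl12 was 2.85-fold and Cxcr4 8.05-fold as high as in wild type. Ackr3 was at 25.3% of its wild-type level.

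Cxcl12 is a secreted chemokine that binds heparan sulfate and forms gradients along which cells migrate. Cxcr4 is its signalling receptor, which acts through inhibitory G proteins. Ackr3 is an atypical receptor that binds the same ligand, couples to beta-arrestin rather than to G proteins, and removes Cxcl12 from the extracellular space. In the mouse heart, Cxcl12 and Cxcr4 are needed for coronary arteries to mature and to connect with the aorta, and embryos without Ackr3 have malformed semilunar valves.

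The 3 mutant libraries, called dKO, came from embryos of the genotype Meis1fl/fl;Meis2fl/fl;WT1-Cre at E16.5, and the 3 libraries called control came from wild-type embryos of the same stage. WT1-Cre is a recombinase that acts in cells with a history of Wt1 activity, such as the epicardium and its descendants, so cells in the dissection without that history would keep both Meis genes. Tissue from 2 hearts with the same genotype was pooled for each library, so the spread between libraries is that between pools and not between single hearts. Sources used here do not give the strain, the deleted exons or the Cre status of the wild-type embryos. Pools are numbered as in their titles, dKO 1, 2 and 3 and control 1, 2 and 4.

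Promoter sequences of the 3 genes are shown because 2 of the genes were higher and 1 was lower in the dKO pools, and because the deleted factors bind DNA. All 3 genes were matched in the RefSeq promoter table of the GRCm38.p6 build. Each line gives the 250 bases before the RefSeq start site, 5′ to 3′ on the strand of the gene. Capitals mark every match, on either strand, to the TATA box written as TATAAA, the GC box bound by Sp1 as GGGCGG, the core of the NRF-1 site as TGCGCA, the core of the hypoxia-inducible factor site as ACGTG and also as GCGTG, and the site of Meis and other TALE factors as TGACAG. The windows are chr6:117168285-117168534 on the plus strand for Cxcl12, chr1:128592300-128592549 on the minus strand for Cxcr4 and chr1:90203730-90203979 on the plus strand for Ackr3.
Cxcl12: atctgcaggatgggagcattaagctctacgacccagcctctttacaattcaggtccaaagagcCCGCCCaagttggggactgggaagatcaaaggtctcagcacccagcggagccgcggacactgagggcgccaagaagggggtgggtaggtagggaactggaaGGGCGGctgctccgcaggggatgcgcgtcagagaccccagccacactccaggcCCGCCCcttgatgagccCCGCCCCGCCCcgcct
Cxcr4: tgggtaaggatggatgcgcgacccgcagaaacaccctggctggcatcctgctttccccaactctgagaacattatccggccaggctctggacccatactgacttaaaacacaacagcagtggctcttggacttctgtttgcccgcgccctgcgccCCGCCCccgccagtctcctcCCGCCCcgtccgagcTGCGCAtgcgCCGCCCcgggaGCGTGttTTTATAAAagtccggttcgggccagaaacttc
Ackr3: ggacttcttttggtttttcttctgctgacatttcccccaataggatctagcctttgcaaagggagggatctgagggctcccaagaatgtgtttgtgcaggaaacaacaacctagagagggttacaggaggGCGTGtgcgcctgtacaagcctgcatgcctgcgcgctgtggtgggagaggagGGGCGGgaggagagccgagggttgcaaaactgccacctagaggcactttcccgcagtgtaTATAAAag

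The Cxcl12 window held 5 GC boxes and none of the other motifs, and its GC content was 64.4%. The last 2 of these boxes, at -16 to -11 and -11 to -6 from the start, share a base. The Cxcr4 window held TATAAA on both strands, overlapping between -32 and -25. It also held 3 GC boxes, 1 NRF-1 core at -60 to -55 and 1 hypoxia-inducible factor core at -39 to -35, with a GC content of 61.2%. The Ackr3 window held TATAAA at -8 to -3, 1 GC box and 1 hypoxia-inducible factor core at -120 to -116, with a GC content of 54.0%. TGACAG was in none of the 3 windows. Among 32851 mouse promoter windows of the same length, 12.4% held TATAAA, 32.7% GGGCGG, 6.43% TGCGCA, 38.6% a hypoxia-inducible factor core in either spelling and 15.9% TGACAG. These matches describe the letters of short windows and say nothing of binding by the factors.

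Expression is given as normalised read counts, the deposited values, on a scale of reads per 1e6 of a scaled library size. The reads recovered from these values totalled 13146322 to 20635676 per dKO library and 14977143 to 15562385 per control library, and 1 read was worth 0.0487 to 0.0740. Meis2 had 44.5, 34.8 and 44.5 in the dKO pools, against 86.1, 85.6 and 63.3 in the control pools, and its dKO mean was 52.7% of the control mean (limma adjusted p = 0.0035, or 0.700 with the average of the cardiomyocyte markers as a covariate). Meis1 had 58.5, 74.1 and 65.0 in the dKO pools, against 106, 63.6 and 63.4 in the control pools. The Meis1 groups overlapped (limma adjusted p = 0.521), so Meis1 values over all exons do not separate the labels. The deleted exons are not seen in a sum over all exons, and other genes cover 18.3% of the exonic bases of Meis1. Genes departing 4-fold or more from the rest of the group numbered 33 upward and 38 downward in dKO 1, and 49 upward and 23 downward in control 1. The other libraries had 12 to 22 upward and 16 to 25 downward.

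The labelled tissue was checked against marker genes. The epicardial and mesothelial list averaged 3.61 to 4.12 in the dKO libraries and 6.59 to 7.10 in the control libraries as a mean of log2(value + 1). The cardiomyocyte list averaged 9.92 to 10.1 in the dKO libraries and 7.57 to 8.73 in the control libraries. Cardiomyocyte markers were therefore above epicardial markers in all 6 libraries, and more so in the dKO libraries. The lists hold different genes and the values are not divided by length, so this gap does not give the share of each cell type. All 15 cardiomyocyte genes rose and all 15 epicardial genes fell in the comparison of dKO with control (limma adjusted p under 0.05). Over all genes, 9.81% rose and 12.2% fell. In bulk tissue of this kind, fewer cells of a type and less RNA per cell cannot be told apart, and this holds for every value below.

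Cxcl12, the ligand, was higher in every dKO pool than in any control pool. Cxcl12 (ENSMUSG00000061353) lies on the plus strand of chromosome 6 from 117168535 to 117181367 in GRCm38, with 4 annotated transcripts in GENCODE M21, 3 of them protein-coding, and 8176 exonic bases. It had 135, 152 and 171 normalised reads in dKO 1, 2 and 3, against 39.1, 54.9 and 66.7 in control 1, 2 and 4. The gap between the lowest dKO pool and the highest control pool was wider than the range within either group. The means were 153 ± 18.2 in dKO and 53.6 ± 13.9 in control (SD, n = 3 each), a ratio of 2.85. On log2 of the value plus 1, the difference was 1.52 with a standard error (SE) of 0.19. These values rest on 2058 to 3508 reads per dKO library and 632 to 1050 reads per control library.

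The pools were ordered oppositely by Cxcl12 and by the cardiomyocyte list among the dKO pools, and alike among the control pools. In the dKO pools, Cxcl12 was highest in dKO 3, where the list average of 9.92 was the lowest of the 3, beside 10.02 in dKO 2 and 10.1 in dKO 1. In the control pools, Cxcl12 was lowest in control 1, where the list average was 7.57, and higher in control 2 and control 4, where it was 8.63 and 8.73. With the list average as a covariate, the fitted Cxcl12 difference was 0.63 on the log2 scale in place of 1.52. The list average itself separated the groups without overlap, so with 6 libraries the genotype and the cardiomyocyte signal cannot be told apart in this fit.

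Cxcr4, the signalling receptor, was higher in every dKO pool than in any control pool, where it was low. Cxcr4 (ENSMUSG00000045382) lies on the minus strand of chromosome 1 from 128588199 to 128592293, with 2 annotated transcripts, both protein-coding, and 1808 exonic bases. It had 28.9, 38.4 and 36.9 normalised reads in dKO 1, 2 and 3, against 6.70, 3.41 and 2.83 in control 1, 2 and 4. The dKO pools lay close together, while control 1 stood above the other controls. The means were 34.7 ± 5.12 in dKO and 4.31 ± 2.09 in control (SD, n = 3 each), a ratio of 8.05. On log2 of the value plus 1, the difference was 2.81 with an SE of 0.28, and only 2 genes of the whole table had a larger rise on that scale.

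Cxcr4 rested on 464, 519 and 756 reads in the dKO pools, against 108, 53 and 44 reads in the control pools. Exact 95% Poisson intervals, which cover counting error only, ran from 26.3 to 31.6 in dKO 1, the lowest dKO pool, and from 5.47 to 8.05 in control 1, the highest control pool. The intervals of control 2 (2.53 to 4.42) and control 4 (2.03 to 3.75) overlapped each other and lay below that of control 1. Cxcr4 in control 1 was therefore above the other controls by more than counting error. Without control 1 the log2 difference was 3.11, and without both control 1 and dKO 1 it was 3.23. With the cardiomyocyte average as a covariate the fitted difference was 4.26.

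Ackr3, the scavenging receptor, was lower in every dKO pool than in any control pool. Ackr3 (ENSMUSG00000044337) lies on the plus strand of the same chromosome 1 from 90203980 to 90216751, 38.4 Mb from Cxcr4, with 2 annotated transcripts, both protein-coding, and 3348 exonic bases. It had 15.6, 9.95 and 22.2 normalised reads in dKO 1, 2 and 3, against 58.9, 66.2 and 63.5 in control 1, 2 and 4. The control pools lay close together, whereas the dKO pools spread more widely for their level. The means were 15.9 ± 6.15 in dKO and 62.9 ± 3.68 in control (SD, n = 3 each). On log2 of the value plus 1, the difference was -1.98 with an SE of 0.24, and 293 genes had a larger fall. With the cardiomyocyte average as a covariate the fitted difference was -2.08. These values rest on 134 to 456 reads per dKO library and 954 to 1037 reads per control library.

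All 3 genes had groups that did not overlap, which was true of 40.4% of all 14549 genes. None of the 3 shares exonic bases with another annotated gene. Since the genes were chosen on this contrast, the count is no evidence about them. For scale, 1427 genes rose (9.81%) and 1778 fell (12.2%) over the whole table in the limma fit at an adjusted p under 0.05.

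**Figure D1:**
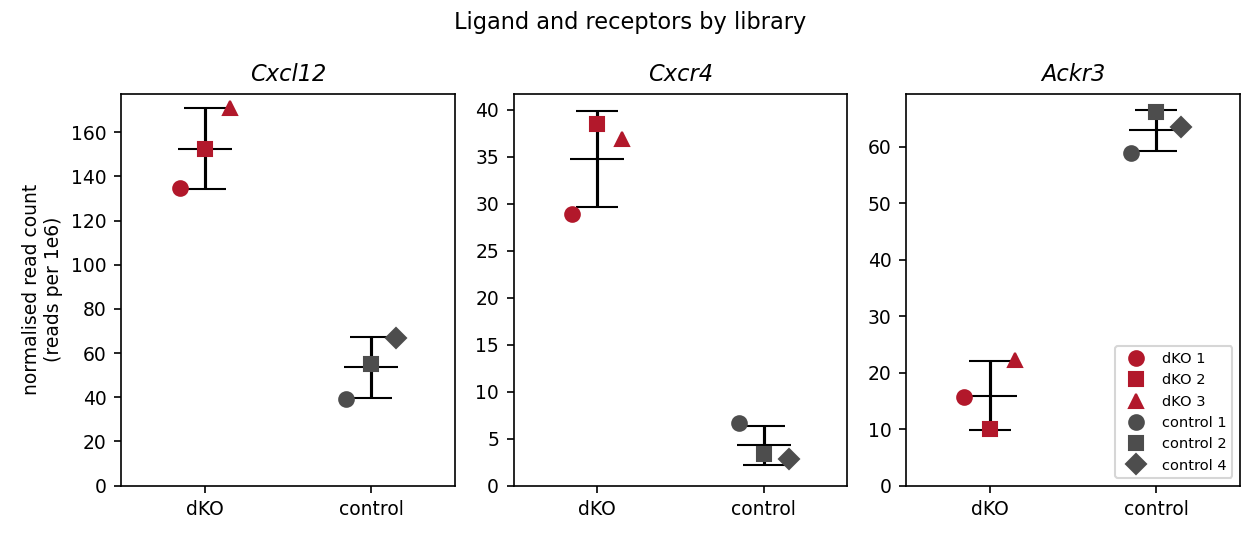
Normalised read counts (reads per 1e6, each panel on its own linear axis) of Cxcl12, Cxcr4 and Ackr3, with dKO pools left of control pools; points are libraries, and bars show the mean and SD of 3. Cxcl12 and Cxcr4 points lie higher in all dKO pools (135 to 171 and 28.9 to 38.4) than in any control pool, and Ackr3 points lie lower (9.95 to 22.2).

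To compare levels between the genes, each value was divided by the exonic length in kilobases. This length joins the exons of all annotated transcripts of a gene. For Cxcl12 it is 8176 bases, while its single transcripts have 1878 to 5627. Which transcripts were expressed was not determined, so orders, percentiles and ratios between genes depend on the length used. In the dKO pools the order was Cxcr4 (19.2 ± 2.83 normalised reads per kb), Cxcl12 (18.7 ± 2.22) and Ackr3 (4.76 ± 1.84) (SD, n = 3 each). The first pair differed by less than the spread between pools, and Ackr3 lay below both in every pool. In the control pools the order was Ackr3 (18.8 ± 1.10 normalised reads per kb), Cxcl12 (6.55 ± 1.70) and Cxcr4 (2.39 ± 1.15) (SD, n = 3 each), and it was the same in each control pool. Among 14535 genes with a length, the mean level per kb placed Cxcr4 at percentile 85.0 in dKO and 31.7 in control. Cxcl12 was at percentile 84.5 in dKO and 59.7 in control, and Ackr3 at 50.8 in dKO and 84.3 in control.

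The sum of the receptor levels per kb overlapped between the groups while its make-up did not. Cxcr4 plus Ackr3 came to 20.6, 24.2 and 27.0 normalised reads per kb in dKO 1, 2 and 3, against 21.3, 21.7 and 20.5 in control 1, 2 and 4. The means of the sum were 24.0 ± 3.20 in dKO and 21.2 ± 0.578 in control (SD, n = 3 each). Cxcr4 made up 77.4%, 87.7% and 75.4% of this sum in the dKO pools, against 17.4%, 8.72% and 7.61% in the control pools. Thus Cxcr4 exceeded Ackr3 per kb 3.07- to 7.15-fold in the dKO pools, and Ackr3 exceeded Cxcr4 4.75- to 12.1-fold in the control pools. RNA from many cells was pooled, so these sums do not show which cells carry which receptor.

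The level of the ligand relative to the receptors differed as well. Per kb, Cxcl12 came to 0.797, 0.769 and 0.774 of the receptor sum in dKO 1, 2 and 3, against 0.224, 0.310 and 0.397 in control 1, 2 and 4. This ratio was nearly constant among the dKO pools (SD 0.0153) and varied more among the control pools (SD 0.0865). Cxcl12 over Cxcr4 alone was 1.03, 0.876 and 1.03 in the dKO pools, against 1.29, 3.56 and 5.22 in the control pools. The ratio in control 1 was closer to the dKO values than to those of the other controls.

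**Figure D2:**
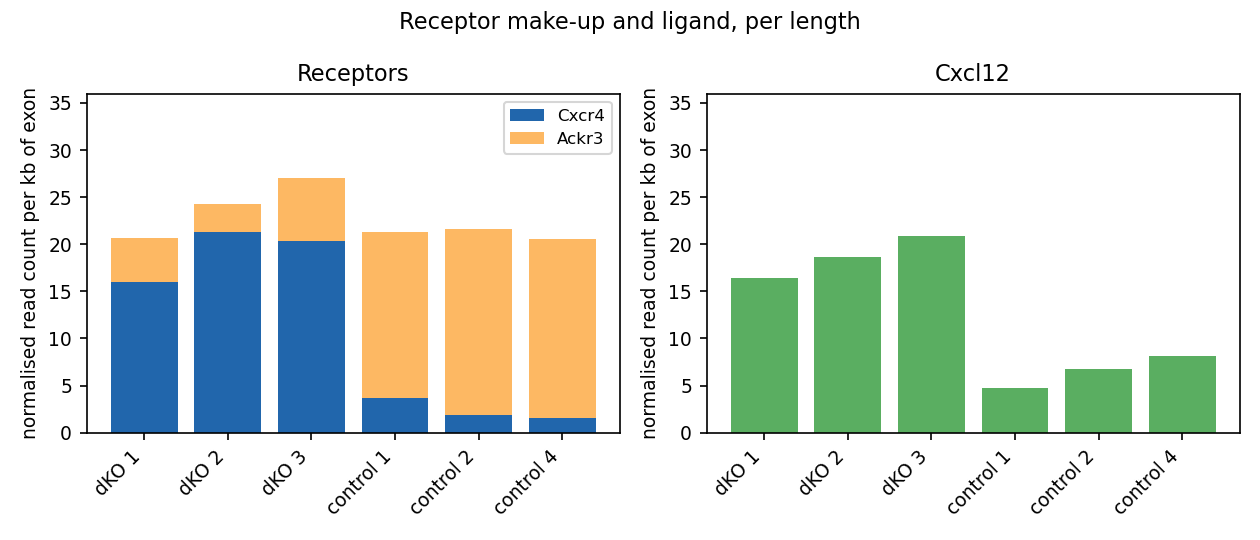
Levels per kb of exon in each library, dKO left of control: stacked bars of Cxcr4 and Ackr3 in the left panel, Cxcl12 in the right panel, on the same linear scale. The stacked height stays between 20.5 and 27.0 in all 6 libraries, while Cxcr4 fills most of it in the dKO pools and Ackr3 in the control pools.

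The other genes of the pathway were described from 7 lists set by role, which were drawn up with earlier results of these data known. Together they name 129 genes, of which 85 had values. In the limma fit on log2 of the value plus 1, 10 of the 85 rose and 21 fell, and 54 did not pass an adjusted p of 0.05. By list, the share called ran from 21.4% to 60%, beside 22.0% of all genes. Over the 85 genes it was 36.5%, and the median difference was -0.19, beside 0.0016 over all genes. Leaving out dKO 3 left 6 higher, and leaving out control 2, control 4 or dKO 2 left 13, 12 and 12 lower. With the cardiomyocyte average as a covariate, 1 was higher and 4 were lower, where the same fit called 207 genes of the whole table. Without a variance trend 6 rose and 17 fell, and Ackr4, Hspg2, Arrb1 and Hif1a were among those that no longer passed.

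**Figure D3:**
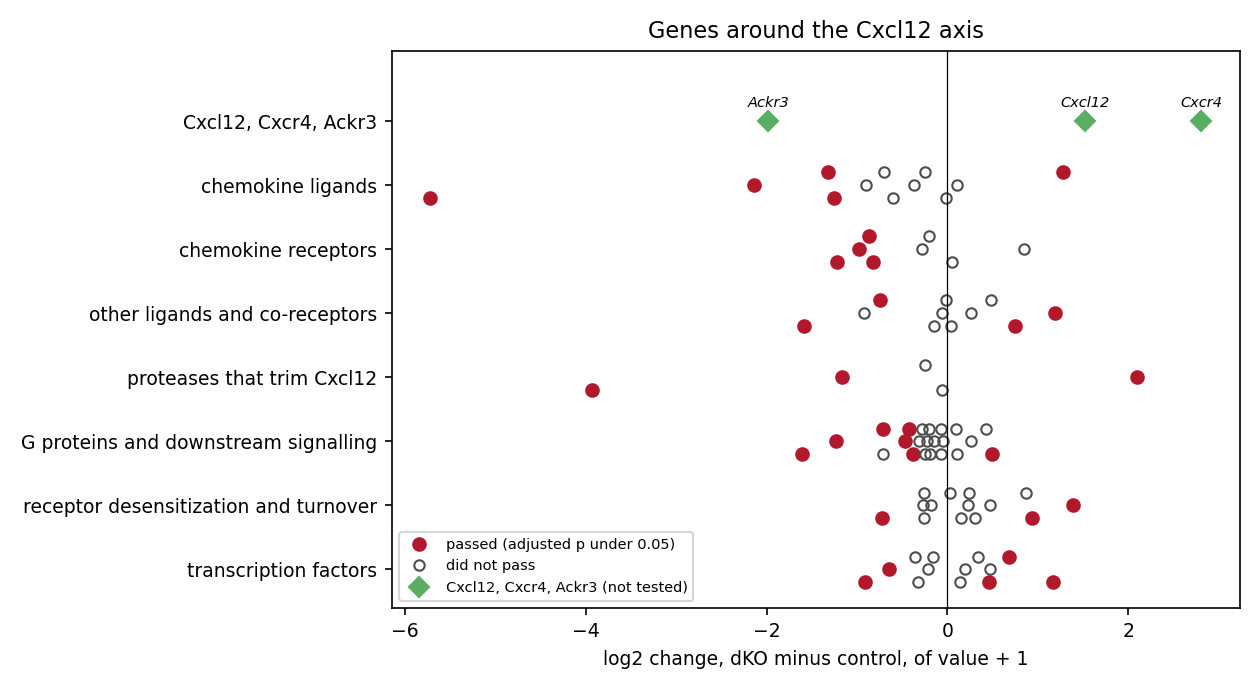
Log2 difference of dKO minus control, on the value plus 1, for Cxcl12, Cxcr4 and Ackr3 (diamonds, not tested) and for each measured gene of the 7 lists (rows); filled circles passed a limma adjusted p of 0.05 and open circles did not, and the vertical offset within a row only separates points. Cxcr4 lies right of every listed gene and Ccl21a is the leftmost.

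Among the other chemokine ligands, 12 of 37 listed genes had values; 1 rose and 4 fell, with a median of -0.65. Cx3cl1, the membrane-bound ligand of Cx3cr1, had 9.60, 13.0 and 12.3 normalised reads in dKO, against 3.98, 4.44 and 4.03 in control. It rose by 1.28 on the log2 scale (SE 0.23, limma adjusted p = 0.0031). Pf4, a chemokine stored in platelets, had 4.63, 4.70 and 5.68 in dKO, against 21.4, 22.2 and 34.4 in control, and its dKO mean was 19.2% of the control mean (limma adjusted p = 0.0002). Ccl21a, a lymphatic chemokine that binds Ccr7, rested on 7, 0 and 16 reads in dKO, against 572, 1345 and 1996 reads in control (limma adjusted p = 1.7e-05). Near-identical copies of Ccl21a exist in the mouse genome, so the assignment of its reads is uncertain. Of the 12 measured ligands, Cx3cl1 was thus the one that passed in the direction of Cxcl12.

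Among the other chemokine receptors, 8 of 21 had values, and 4 fell in the limma fit, with a median of -0.56. Ccrl2, an atypical receptor that presents chemerin, had 2.14, 2.55 and 2.31 normalised reads in dKO, against 6.39, 6.73 and 7.21 in control (log2 difference -1.22, SE 0.24, limma adjusted p = 0.0055). Cx3cr1, the fractalkine receptor of macrophages and their relatives, had 26.1, 32.0 and 31.9 in dKO, against 53.8, 44.3 and 64.9 in control (log2 difference -0.82, SE 0.17, limma adjusted p = 0.0066). Ackr4, an atypical receptor that removes Ccl19 and Ccl21, had 16.8, 13.1 and 6.85 in dKO, against 19.2, 26.3 and 26.4 in control (log2 difference -0.98, SE 0.29, limma adjusted p = 0.035). Ackr4 no longer passed without control 2 (0.10), control 4 (0.10), dKO 2 (0.064) or dKO 3 (0.098), given here as limma adjusted p. For none of these receptors, which were named for their small p, did the groups overlap, and the same was true of 40.4% of all genes. The number of receptors that fell was 2 without control 2, without control 4 or without dKO 2. The 4 receptors that passed thus moved in the direction of Ackr3.

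Among the other ligands and co-receptors, all 11 had values; 2 rose and 2 fell, with a median of -0.02. Sdc4, a heparan sulfate proteoglycan that binds CXCL12 on human cells, had 14.95, 19.1 and 21.0 normalised reads in dKO, against 71.2, 60.7 and 42.5 in control (log2 difference -1.59, SE 0.21, limma adjusted p = 0.0006). Hspg2, the basement membrane proteoglycan perlecan, rose to 268.9, 244 and 233 in dKO, against 160.2, 108 and 184 in control (log2 difference 0.75, SE 0.18, limma adjusted p = 0.015). The heparan sulfate carriers that passed thus moved in opposite directions. Calcrl, a receptor subunit for adrenomedullin, had 50.3, 42.9 and 48.5 in dKO, against 64.6, 82.2 and 95.8 in control (log2 difference -0.75, SE 0.16, limma adjusted p = 0.0079). Adm, which encodes adrenomedullin, a peptide that Ackr3 also removes, had 3.89, 10.4 and 6.80 in dKO, against 9.60, 6.22 and 5.49 in control, and its groups overlapped (limma adjusted p = 0.914). Mif, a cytokine that is an alternative ligand of Cxcr4, had 54.6, 27.5 and 34.8 in dKO, against 10.1, 19.4 and 20.0 in control (log2 difference 1.19, SE 0.30, limma adjusted p = 0.017). Mif did not pass without dKO 1 (limma adjusted p = 0.056). Mif and Adm were named after their values were seen.

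Among the proteases that trim Cxcl12, 5 of 10 had values; 1 rose and 2 fell, with a median of -0.25. Dpp4, a membrane peptidase that removes the first residues of Cxcl12 and so inactivates it, had 9.92, 20.5 and 32.7 normalised reads in dKO, against 283, 308 and 319 in control. Its dKO mean was 6.93% of the control mean (log2 difference -3.93, SE 0.32, limma adjusted p = 3.1e-05). Each control pool was far above each dKO pool, and Dpp4 was the largest change of these proteases on log2 of the value plus 1. Mmp9, a gelatinase that cleaves Cxcl12, rested on 79, 30 and 98 reads in dKO, against 0, 0 and 5 reads in control (limma adjusted p = 0.002). Its log2 difference was 2.10, and the ratio of its means was 29.1, resting on these few control reads. The Dpp4 means differed 14.4-fold. Cpm, a membrane carboxypeptidase, had 2.70, 2.77 and 3.82 in dKO, against 5.47, 8.84 and 11.1 in control (log2 difference -1.17, SE 0.29, limma adjusted p = 0.017). Cpm did not pass without control 2, control 4 or dKO 2 (limma adjusted p = 0.058, 0.065 and 0.058). The values for Mmp2, another gelatinase, were 240.3, 267 and 277 in dKO and 249.6, 241 and 335 in control, and did not separate the groups.

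Among the G proteins and downstream signalling genes, all 22 had values; 1 rose and 6 fell, with a median of -0.22. Gnai3, an inhibitory G protein alpha subunit of the kind Cxcr4 couples to, had 119.7, 124 and 120.5 normalised reads in dKO, against 222, 193 and 187 in control (log2 difference -0.72, SE 0.11, limma adjusted p = 0.0019). Gnai2, from the same family, had a mean of 263 ± 19.5 in dKO and 247 ± 40.8 in control (SD, n = 3 each; limma adjusted p = 0.672). Ptk2b, a focal adhesion kinase that Cxcr4 signalling activates, had 14.8, 13.7 and 20.0 in dKO, against 68.1, 43.6 and 43.6 in control (log2 difference -1.61, SE 0.21, limma adjusted p = 0.0007). Rac2, a small GTPase of blood cells, had 2.02, 3.66 and 3.97 in dKO, against 8.92, 7.31 and 9.94 in control (log2 difference -1.23, SE 0.28, limma adjusted p = 0.0104). For Gnai3, Ptk2b and Rac2, which were named for their small p, every dKO pool was below every control pool. Groups did not overlap in either direction for 40.4% of all genes. The number that fell was 3 without control 2, without control 4, without dKO 2 or without dKO 3. No gene of the list changed as much as Cxcr4, which follows from the choice of Cxcr4 as one of the largest rises.

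Among the genes of receptor desensitization and turnover, 14 of 15 had values, of which 2 rose and 1 fell, with a median of 0.19. The share called was 21.4%, near the 22.0% of all genes. Grk3, a kinase that phosphorylates the tail of active CXCR4 in human cells, had 55.7, 58.1 and 41.9 normalised reads in dKO, against 19.8, 20.7 and 16.54 in control, a ratio of 2.73 (limma adjusted p = 0.0004). Rgs16, which shortens signalling by inhibitory G proteins, had 15.7, 15.3 and 21.7 in dKO, against 10.8, 8.14 and 7.21 in control (log2 difference 0.93, SE 0.23, limma adjusted p = 0.015). It did not pass without control 4 or dKO 3 (limma adjusted p = 0.0505 and 0.078), and 10.1% of its exonic bases overlap another gene. Arrb1, a beta-arrestin that binds both receptors, had 26.6, 27.4 and 23.0 in dKO, against 37.8, 35.3 and 59.2 in control (log2 difference -0.72, SE 0.20, limma adjusted p = 0.027). It did not pass without control 4, dKO 1, dKO 2 or dKO 3 (limma adjusted p from 0.052 to 0.098). Arrb2, the other beta-arrestin, had a mean of 16.3 ± 3.99 in dKO and 19.4 ± 2.62 in control (SD, n = 3 each; limma adjusted p = 0.438).

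Among the transcription factors known to act on the Cxcl12 or Cxcr4 gene, all 13 had values; 3 rose and 2 fell, with a median of 0.14. Notch1, a receptor whose cleaved form acts in the nucleus, had 27.1, 22.5 and 27.6 normalised reads in dKO, against 10.7, 10.4 and 11.5 in control (log2 difference 1.17, SE 0.17, limma adjusted p = 0.0013). Rbpj, the DNA-binding partner of the Notch receptors, had 91.9, 82.2 and 75.1 in dKO, against 152, 119.0 and 122 in control (log2 difference -0.65, SE 0.14, limma adjusted p = 0.008). Hif1a, the oxygen-regulated factor that acts on the Cxcr4 and Cxcl12 promoters, had 286, 291 and 320.2 in dKO, against 231, 209 and 213 in control (log2 difference 0.45, SE 0.11, limma adjusted p = 0.018). The groups overlapped for none of Notch1, Rbpj and Hif1a, which were named for their small p. Groups also did not overlap for 40.4% of all genes. Hif1a did not pass without control 2, control 4, dKO 2 or dKO 3 (limma adjusted p from 0.052 to 0.089). Nrf1, the factor of the NRF-1 core printed in the Cxcr4 promoter, had 28.9, 25.4 and 22.4 in dKO, against 22.2, 21.9 and 25.1 in control, with overlapping groups (limma adjusted p = 0.587; named after its values were seen).

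Markers of the cell types that could carry these genes were set beside them. For scale, 9.81% of all genes rose and 12.2% fell in the limma fit. Markers of endothelial cells as a whole did not separate the groups. The pan-endothelial list averaged 6.42 to 6.73 in dKO and 6.18 to 6.89 in control, with 0 of 13 genes higher and 1 lower (Tek) in the limma fit. At an unadjusted p under 0.05, 1 was higher and 2 were lower, and edgeR and DESeq2 called 0 higher. With that average as a covariate the Cxcr4 difference was 2.82 and the Ackr3 difference -1.98 on the log2 scale, nearly the values without it. An average alike in both groups can move such differences little, so this fit does not show the part of endothelial cells. The arterial and tip cell list averaged 4.53 to 4.70 in dKO and 3.73 to 3.88 in control, with 8 of 15 genes higher and 1 lower; its Sox17 is also among the transcription factors above. Among these, Dll4 had 26.8, 24.7 and 25.7 normalised reads in dKO, against 5.47, 6.41 and 10.4 in control (limma adjusted p = 0.0008). Gja5 had 24.9, 48.0 and 43.4 in dKO, against 11.9, 10.05 and 7.65 in control (limma adjusted p = 0.001). Angpt2, listed as a tip cell gene, fell to 3.33, 3.66 and 4.36 in dKO, against 17.5, 20.1 and 22.4 in control (limma adjusted p = 0.0001). The part of arterial cells in the Cxcr4 values was not tested.

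Cells of the blood also carry Cxcr4. The macrophage and other leukocyte list averaged 3.57 to 4.23 in dKO and 4.17 to 4.50 in control, with 0 of 11 genes higher and 3 lower in the limma fit. At an unadjusted p under 0.05, 0 were higher and 5 lower, and edgeR and DESeq2 called 0 higher. Ptprc, which marks all leukocytes, had 4.20, 10.8 and 7.82 normalised reads in dKO, against 11.8, 8.14 and 8.35 in control (limma adjusted p = 0.482). Cd3e, Cd79a and Ncr1, which define lymphocyte types, had no value in the table. The part of leukocytes in the Cxcr4 values was not tested. The blood progenitor and erythroid list averaged 6.12 to 6.41 in dKO and 5.80 to 6.40 in control, with 1 of 8 genes higher (Cd34). That count depended on single pools, being 3 without control 1 and 0 without control 2 or dKO 3.

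Other lists separated the groups as Cxcl12 or Ackr3 did. The mural list averaged 5.84 to 6.01 in dKO and 5.07 to 5.21 in control, with 7 of 11 genes higher. The fibroblast list averaged 8.28 to 8.58 in dKO and 9.72 to 9.83 in control, with 9 of 10 genes lower. The lymphatic list averaged 3.49 to 3.85 in dKO and 6.14 to 6.80 in control, with 6 of 7 genes lower, among them Ccl21a of the chemokine list. The mast cell list averaged 1.19 to 1.69 in dKO and 5.85 to 6.30 in control, with 3 of 3 measured genes lower, while 0 of 3 genes of the neuronal and Schwann list passed in limma, edgeR or DESeq2 and 1 had an unadjusted limma p under 0.05. The part of these cells in the levels of Cxcl12 and Ackr3 was not tested.

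**Figure D4:**
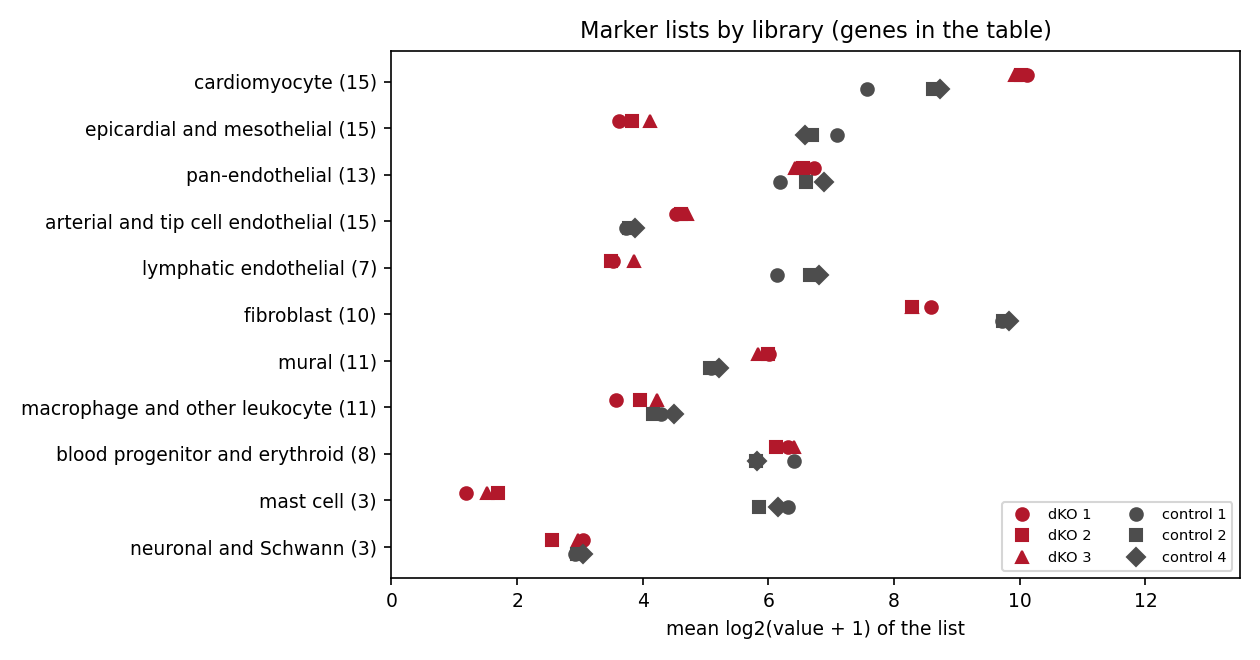
Mean of log2 of the value plus 1 over the measured genes of each marker list (number in brackets), with the dKO libraries drawn above the control libraries in each row and 1 point per library. The cardiomyocyte, arterial and mural lists lie higher in all dKO libraries, the epicardial, fibroblast, lymphatic and mast cell lists lie lower, and the pan-endothelial list overlaps.

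The genes whose profiles over the 6 libraries were most like those of the 3 were found by the root mean square difference of centred log2 values among 10947 genes with a mean of at least 5. The closest to Cxcl12 were Dsp (0.070), Ehbp1l1 (0.083), Mov10l1 (0.087), Homer2 (0.096) and Hk1 (0.106). Dsp, which encodes desmoplakin of the desmosome, averaged 836 ± 60.4 normalised reads in dKO and 278 ± 68.5 in control (SD, n = 3 each). The closest to Ackr3 were Npr3 (0.105), Bace2 (0.134), Cryl1 (0.180), Slc2a13 (0.205) and Tmem178 (0.213). Npr3, the clearance receptor of natriuretic peptides, averaged 28.0 ± 11.04 in dKO and 122 ± 6.95 in control (SD, n = 3 each). Like Ackr3, it had a wider relative spread among the dKO pools than among the control pools, a likeness that the search itself selects for.

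Cxcr4 had no such close neighbour. Its nearest profiles were Ctnna2 (0.406), Thbs4 (0.409), Cthrc1 (0.443), Sema7a (0.445) and Capn3 (0.508), each farther from Cxcr4 than any of the 5 named for Cxcl12 or Ackr3 was from its gene. The measure takes in the size of the difference between groups. Cxcr4 was chosen as one of the largest rises, with only 2 genes above it, so few genes could lie near it. Its control values also rest on few reads, 44 to 108. Ctnna2, an alpha-catenin, averaged 16.4 ± 2.02 normalised reads in dKO and 2.03 ± 0.499 in control (SD, n = 3 each). Cxcr4 itself was 0.836 from Cxcl12 and 2.45 from Ackr3 by the same measure, and Cxcl12 was 1.78 from Ackr3. The similarity is a description over 6 libraries that differ in genotype, and the closest genes depend on the libraries used. Without control 1 and dKO 1, only 1 of the 5 genes nearest to Cxcl12 was still among its nearest 5, with 4 for Cxcr4 and 3 for Ackr3.

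**Figure D5:**
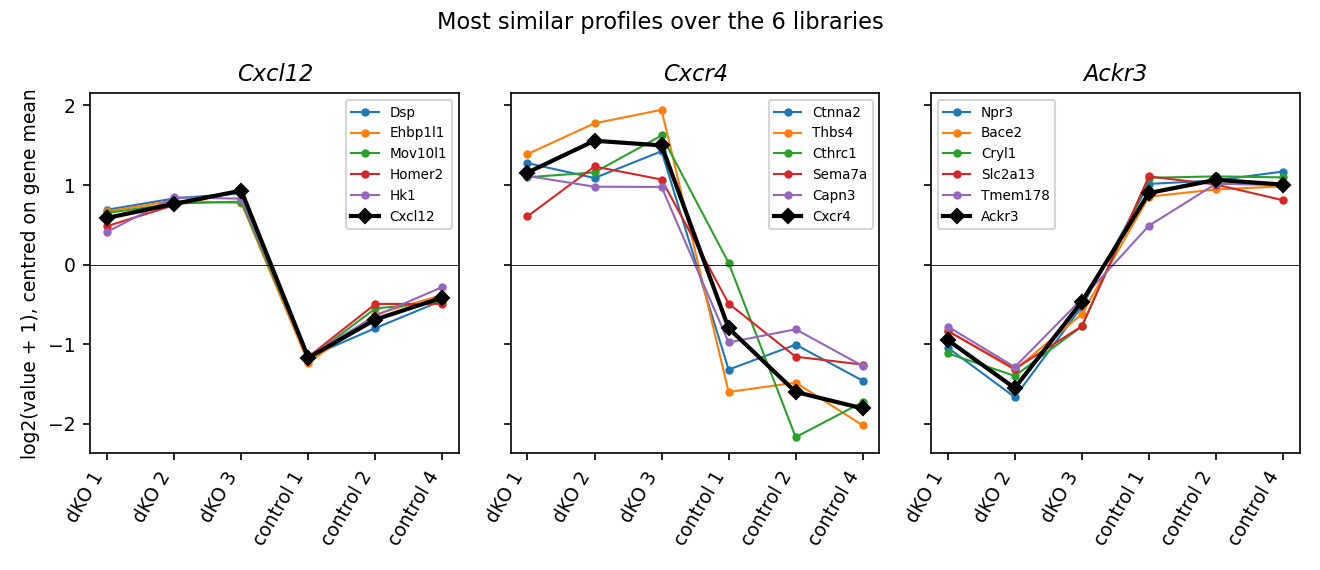
Log2 of the value plus 1, centred on each gene's mean, in the 6 libraries (dKO left, control right; lines only join the points of a gene) for Cxcl12, Cxcr4 and Ackr3 (black diamonds) and the 5 genes nearest to each. The coloured lines lie close to Cxcl12 and Ackr3 and spread more around Cxcr4, whose nearest gene is at 0.406.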

How the data were processed

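Polyadenylated RNA from 6 pools of epicardium and subepicardium (3 dKO, 3 wild type) was sequenced from 40 ng of total RNA each; the kit is not stated to keep strand. Per the submitters' processing notes, adapters were trimmed with cutadapt and genes were quantified with RSEM 1.3.1 on GRCm38. Sources used here do not give the annotation release, the normalization or the gene filter. The authors deposited a linear normalised signal for 14549 genes. Every deposited value was (whole reads + 0.5) per 1e6 of a scaled library size within 0.01 reads (100% of values in each library), so whole reads were recovered; the totals cover only the genes in the table.

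The dKO and control libraries entered a linear model in limma 3.58.1 (R 4.3.3) with a variance trend, on log2(value + 1), where changes of low genes come out too small, two-sided, Benjamini-Hochberg adjusted over all genes that had 1 or more in at least 3 libraries (all 14549), threshold 0.05. The fit was tested on simulated data. As alternatives, edgeR 4.0.16 called 2956 and DESeq2 1.42.0 called 3621 genes on the recovered reads, against 3205 in limma, and 16 other settings were run. The members, lists, tests and naming rules were chosen with earlier results of these data known. Named by rule were the 3 genes, Meis1, Meis2 and up to 3 called genes of smallest p per pathway list. The 5 nearest profiles of each gene (predicted models left out, mean of 5 or more) were also named by rule. Genes named beyond the rule are Mif, Adm, Nrf1, Gnai2, Arrb2, Mmp2, the marker genes and the called neighbours on the chromosome. Of 14549 identifiers, 14535 were found in GENCODE M21, which gave lengths and exonic overlap; promoters are from RefSeq (GRCm38.p6). The labels call the pools biological replicates, from at least 3 litters.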

Additional observations from a re-analysis of the deposited data

How the results depend on the processing

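The directions of Cxcl12, Cxcr4 and Ackr3 held in all 18 alternatives. Leaving out each library in turn gave log2 differences of 1.31 to 1.69 for Cxcl12, 2.60 to 3.11 for Cxcr4 and -2.24 to -1.70 for Ackr3. The Cxcr4 difference was 2.11 with a pseudocount of 5 and 3.23 without control 1 and dKO 1 together. With the cardiomyocyte average as a covariate, Cxcl12 was 0.63, Cxcr4 4.26 and Ackr3 -2.08, 46 genes were higher and 161 lower over the table, and 1 and 4 of the pathway lists; that average separates the groups without overlap.

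Counts of called genes without single libraries were 898 to 1262 higher and 1269 to 1545 lower over the table (898 without dKO 3 and 910 without dKO 2), and 6 to 12 higher and 12 to 20 lower among the pathway genes. Mmp9 was not among the genes under the filter of 5. Without a variance trend 6 pathway genes were higher. A replicate block on the title number, where the numbers 1 and 2 occur in both groups, leaves 1 residual degree of freedom and gave 580 higher and 780 lower genes and 4 and 5 pathway genes. Deviations of same-numbered pools correlated at -0.181 and -0.204, so the numbers were not taken to pair the pools. Over 42 named genes and 755 values, 684 kept the call and 70 kept direction only. Mif reversed with the cardiomyocyte covariate (-0.29, limma adjusted p = 0.902), and the cause was not tested. A change of direction was counted only for genes that passed in the main fit or the alternative, so the 684 can hold others. The 42 genes were Mif, Adm, Nrf1, Epas1 of the transcription factor list, and those named by rule except Cxcl12, Cxcr4 and Ackr3. Gnai2, Arrb2, Mmp2, the chromosome neighbours and the marker genes except Ccl21a were left out. Of Cxcl12, Cxcr4 and Ackr3, Cxcr4 had the fewest reads in the control pools, 44 to 108.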

Other observations

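Genes next to the 3 on the chromosome were looked at after the data were seen. Within 1 Mb of Cxcl12, 14 other genes had values, of which 1 rose (8430408G22Rik) and 2 fell (Csgalnact2 and Rassf4). Csgalnact2, an enzyme of chondroitin sulfate synthesis, had 34.6, 30.7 and 33.0 normalised reads in dKO, against 68.9, 66.0 and 61.9 in control (limma adjusted p = 0.0006). Within 1 Mb of Cxcr4, 10 genes had values and 1 passed, Thsd7b, with 3.89, 5.73 and 9.82 in dKO, against 16.46, 13.6 and 17.2 in control (limma adjusted p = 0.013). That neighbour moved opposite to Cxcr4. Within 1 Mb of Ackr3, 9 genes had values, of which Lrrfip1 rose to 336, 301 and 273 in dKO, against 104, 168 and 164 in control (limma adjusted p = 0.0026). Agap1 fell to 37.5, 41.1 and 39.4 in dKO, against 73.9, 58.4 and 62.5 in control (limma adjusted p = 0.0048). Over the whole table, 22.0% of genes passed in either direction.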
